A study of Homo sapiens with 4 samples.

Results

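Tubulin isotypes are the products of separate genes that build the same polymer. The genes described here are 10 of them, taken by name: the α-tubulin genes TUBA1A, TUBA1B and TUBA1C, the β-tubulin genes TUBB, TUBB2A, TUBB2B, TUBB3, TUBB4B and TUBB6, and the γ-tubulin gene TUBG1. All 10 were found by symbol among the 60564 gene identifiers of the count files, and 9 passed the filter on low counts, TUBB being the exception. RNA-seq counts came from Elf1, a naïve human embryonic stem cell (ESC) line, grown as 2-D or 3-D cultures with 2 independent biological replicates each. The labels place the 2-D cells on plastic coated with Matrigel, for a time they do not give, and the study's methods also describe maintenance on mouse embryonic feeder cells before a move to Matrigel. The 3-D cells were dissociated, encapsulated in scaffolds self-assembled from PEG-8-SH and PEG-8-Acr and kept there for 21 days. Both conditions used ESC expansion medium, so dimension, matrix and time in culture cannot be told apart, and all values are from 1 cell line.

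α- and β-tubulin fold with the help of chaperones, pair as a dimer and polymerise end to end into microtubules, which carry cargo, form the mitotic spindle and shape the cell. γ-tubulin does not enter the wall of the microtubule but sits in a ring complex from which new microtubules grow. Isotypes of one family differ mainly in the short acidic tail at the C terminus, the part that enzymes modify and motors read. Cells also degrade tubulin mRNA during its translation when free dimers are abundant, a feedback known as autoregulation.

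The last 60 coding bases of each β isotype, which encode that tail and the stop codon, are shown to let the isotypes be compared where the family varies, and to show how alike TUBB2A and TUBB2B are. They are from GENCODE release 44 canonical transcripts on the coding strand (hg38), 5′ to 3′. Capitals mark bases that differ from TUBB2A after alignment.
TUBB: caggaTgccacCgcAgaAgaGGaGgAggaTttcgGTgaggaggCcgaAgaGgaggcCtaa
TUBB2A: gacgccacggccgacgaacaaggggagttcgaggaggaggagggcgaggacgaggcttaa
TUBB2B: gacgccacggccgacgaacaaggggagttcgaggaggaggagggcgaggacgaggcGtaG
TUBB3: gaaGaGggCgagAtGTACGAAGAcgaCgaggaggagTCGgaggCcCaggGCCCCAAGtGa
TUBB4B: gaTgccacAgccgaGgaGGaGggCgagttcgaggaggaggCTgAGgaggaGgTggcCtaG
TUBB6: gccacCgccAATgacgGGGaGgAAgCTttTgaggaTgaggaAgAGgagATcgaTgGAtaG
TUBB2B had 2 differing bases in this stretch, TUBB and TUBB4B had 15 each, TUBB6 had 23 and TUBB3 had 28. Over the whole coding sequence the closest β pair was TUBB2A and TUBB2B, with 98.1% identical bases and 25 mismatches. TUBA1A and TUBA1B were 97.2% identical, with 38 mismatches. TUBB2A was 87.7% identical to TUBB3, 87.2% to TUBB4B, 86.2% to TUBB6 and 84.7% to TUBB.

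The α genes lie side by side on chromosome 12 of hg38, TUBA1B (ENSG00000123416.15) at chr12:49127782-49131397 and TUBA1A (ENSG00000167552.14) at chr12:49184686-49189080, both on the minus strand. TUBA1C (ENSG00000167553.15) at chr12:49188736-49274600 is on the plus strand and overlaps the start of TUBA1A. TUBB2A (ENSG00000137267.6) at chr6:3153497-3157544 and TUBB2B (ENSG00000137285.10) at chr6:3223324-3231730 are minus-strand neighbours, while TUBB (ENSG00000196230.13) is in the major histocompatibility region of the same chromosome, at chr6:30717435-30725538. TUBB3 (ENSG00000258947.7) is at chr16:89921392-89938761, TUBB4B (ENSG00000188229.6) at chr9:137241287-137243707, TUBB6 (ENSG00000176014.13) at chr18:12307669-12344320 and TUBG1 (ENSG00000131462.8) at chr17:42609641-42615238, all on the plus strand. The canonical transcripts of the α and β isotypes have 4 exons each, and that of TUBG1 has 11.

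Counts per library summed to between 18276147 and 33833778, lower in both 3-D libraries than in both 2-D libraries. Values below are CPM (reads of a gene scaled to a common library size) after TMM scaling, and fold changes are 3-D over 2-D from the quasi-likelihood test of edgeR, called where the p adjusted by the Benjamini-Hochberg method (BH) over all tested genes was below 0.05. Of 22555 genes tested, 1024 were called higher (4.54%) and 758 lower (3.36%) in 3-D, with a median log2 fold change of -0.00013 over all of them. Scaling by library size alone moved that median to -0.06 and the split of calls to 514 higher and 1872 lower. Of 16 pluripotency markers 15 were tested and 0 were called (4 at an unadjusted p below 0.05, with 0 to 3 called higher and 0 to 1 lower over the alternatives), and their summed level was 4554 to 4581 CPM in 2-D and 4548 to 4657 CPM in 3-D. DPPA5, a naïve marker on that list, was below 1 CPM in every library and was not tested. Markers of other cells and of dividing cells stood as follows: neuronal 0 called of 9 tested (3 at an unadjusted p below 0.05), endoderm and mesoderm 0 of 9 (also 3), trophoblast 0 of 5 (0 at that p), fibroblast 4 higher of 10, and mitotic 3 higher of 17. For the mitotic list DESeq2 called 2 higher, and scaling by library size alone 2 higher and 1 lower. A replicate block with length and GC offsets called 6 higher. Over the alternatives, 0 to 2 neuronal genes and 0 to 2 endoderm and mesoderm genes were called higher, and 0 trophoblast genes. DESeq2, which called 0 in these 3 lists, gave an adjusted p to only 2, 2 and 1 of their genes. The fibroblast markers that rose were COL1A1, COL3A1, THY1 and POSTN, while COL1A2 was at 316 to 324.2 CPM in 2-D and 300.1 to 323.9 CPM in 3-D and S100A4 had a log2 fold change of -0.74 (SE 0.21, edgeR, BH-adjusted p = 0.0534) and was called lower in some alternatives. The whole fibroblast list summed to 539 to 547 CPM in 2-D and 557 to 609 CPM in 3-D, and the defining markers DCN and LUM were below 1 CPM in every library. Whether reads of feeder cells entered these counts was not tested. The mitotic list, whose called members were MKI67, PLK1 and BUB1B, summed to 3258 to 3262 CPM in 2-D and 3416 to 3471 CPM in 3-D. The part of these cells in the tubulin values was not tested, and in bulk RNA fewer cells of a type and less RNA per cell cannot be told apart.

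Among the 9 tested isotypes, 5 were called between 2-D and 3-D, against 7.9% of all tested genes in either direction. TUBG1, TUBB4B, TUBA1A and TUBA1B were higher in 3-D grown cells, and TUBB2B was lower. On the linear scale they ran from -19.7% for TUBB2B to 22.2% for TUBG1. The median log2 fold change of the 9 was 0.10, against -0.00013 over all tested genes. Taken without sign, the median log2 fold change of all tested genes was 0.1285. TUBA1B, although called, was just under that size at 0.1278. How far the high counts of these genes set the share called was not tested. The libraries of the conditions did not overlap for 8 of the 9, compared with 50.5% of all tested genes.

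**Figure D1:**
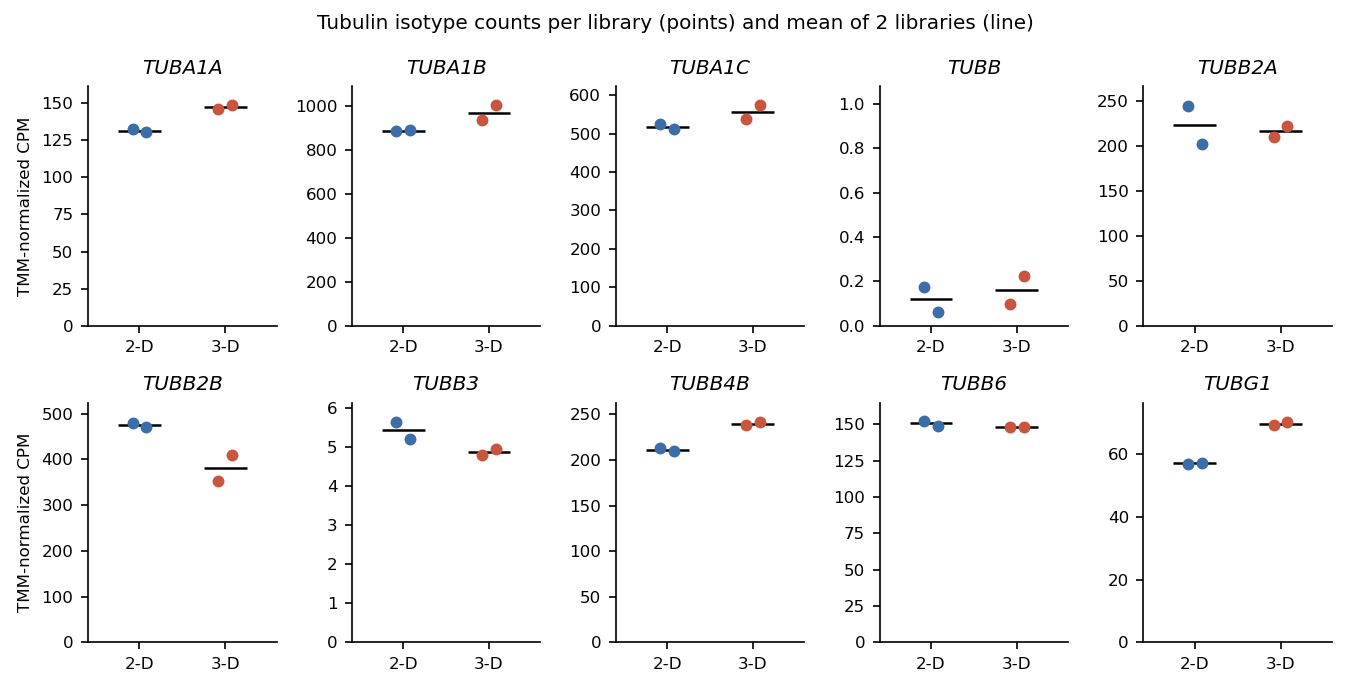
TMM-normalized CPM (vertical axis, from 0, own scale for each gene) of the 10 isotypes in 2-D (blue) and 3-D (red) libraries, replicate 1 on the left and replicate 2 on the right of each pair, with a line at the mean of 2 libraries. TUBG1 and TUBB4B sit higher in both 3-D libraries, TUBB2B sits lower in both, and the 2-D libraries of TUBB2A lie apart at 244 and 202 CPM.

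The α genes encode the subunit at the minus end of the dimer. TUBA1B, the main α-tubulin of dividing cells, was measured at 883 and 889 CPM in the 2-D libraries and at 934 and 1002 CPM in the 3-D libraries. Both 3-D values were above both 2-D values, and the second 3-D library was farther above than the first. The log2 fold change was 0.13 (SE 0.04, edgeR, BH-adjusted p = 0.0467), close to the threshold. TUBA1C, which is also broadly expressed, had 524 and 511 CPM in 2-D and 538 and 574 CPM in 3-D. These values did not overlap, but the log2 fold change of 0.10 (SE 0.04) did not pass the test (edgeR, BH-adjusted p = 0.107). TUBA1A, the α isotype best known from neurons, where mutations cause malformations of the cortex, had 132.3 and 130.4 CPM in 2-D and 145.8 and 148.4 CPM in 3-D. Its libraries lay close within each condition and apart between them, with a log2 fold change of 0.16 (SE 0.03, edgeR, BH-adjusted p = 0.00482). The call of TUBA1B was lost without either 2-D library (edgeR, BH-adjusted p = 0.159 and 0.140) and that of TUBA1A without 2-D replicate 2 (0.0766), while TUBA1C was called without 3-D replicate 1 (5.6e-05). Neither TUBA1A nor TUBA1B was called with library size alone as scaling, where their values stayed above 0.

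Counts of TUBA1B and TUBA1C stand beside those of antisense genes. TUBA1B-AS1, a long noncoding RNA, covers 43.96% of the TUBA1B exon bases on the opposite strand and had 26406 and 23411 counts in 2-D and 16876 and 14987 in 3-D, between 0.833 and 0.877 counts for each TUBA1B count. Its log2 fold change was 0.12 (SE 0.03, edgeR, BH-adjusted p = 0.0289). The noncoding gene ENSG00000258232 covers 14.95% of the TUBA1C exon bases, also on the opposite strand, and had 0.521 to 0.592 counts for each TUBA1C count. Its log2 fold change was -0.04 (SE 0.03, edgeR, BH-adjusted p = 0.510). With antisense counts added to each gene, TUBA1B kept its call, with a log2 fold change of 0.12 (SE 0.03, edgeR, BH-adjusted p = 0.0312), and TUBA1C was at 0.05 (SE 0.03, 0.429). Other isotypes also overlap genes on the opposite strand, among them TUBB6 with AFG3L2 (21.2% of exon bases) and TUBA1A with TUBA1C (9.02%). The counts of those partners were not added. The sources used here do not give whether the counting used strand, so reads of a gene and its antisense partner cannot be told apart.

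Within the α pool, that is, all α-tubulin counts per kb of exon in one library, the isotypes kept nearly fixed shares. TUBA1B made up 61.3% and 62.1% of the pool in 2-D and 61.7% and 62.0% in 3-D. TUBA1C made up 28.6% to 29.2% in 2-D and 28.5% in both 3-D libraries. TUBA1A made up 8.51% to 8.58% in 2-D and 8.58% to 8.99% in 3-D. None of the 3 shares moved by more than 0.422 percentage points. The summed level of the α genes was 1552 and 1542 CPM in 2-D and 1630 and 1739 CPM in 3-D, 8.91% higher in the mean.

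TUBB2B, a β isotype known from neural progenitors and migrating neurons, was the isotype that fell. It had 16526 and 14499 counts in 2-D and 7249 and 7359 in 3-D, or 479 and 470 CPM in 2-D and 352 and 410 CPM in 3-D. Both 3-D libraries lay below both 2-D libraries, and they differed from each other more than the 2-D libraries did. The log2 fold change was -0.32 (SE 0.05, edgeR, BH-adjusted p = 0.00293). With DESeq2 the BH-adjusted p was 0.0475, close to the threshold. TUBB2A, its near-identical neighbour, had 244 and 202 CPM in 2-D and 210 and 222 CPM in 3-D. Here the 2-D libraries stood on either side of the 3-D libraries, and the log2 fold change was -0.05 (SE 0.07, edgeR, BH-adjusted p = 0.754). Without 2-D replicate 1 the value of TUBB2A became 0.10 (edgeR, BH-adjusted p = 0.400), and without 2-D replicate 2 it became -0.18 (0.0341), so a single 2-D library decided its direction.

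The 2 genes share much of their sequence at the length of a read. Of the 150-base windows of the canonical TUBB2A transcript, 48.7% occurred without a mismatch elsewhere in hg38, all of them also in the transcript of another isotype described here. Of the TUBB2B windows 41.6% did so, and 40.3% were in the transcript of another isotype. A window stands for a single read, while the libraries were paired-end. The percentages are therefore not the share of read pairs that match both genes. TUBB2A had 0.510 and 0.429 counts for each TUBB2B count in 2-D and 0.595 and 0.542 in 3-D. Counted as 1 gene, the pair had 723 and 671 CPM in 2-D and 562 and 632 CPM in 3-D. The log2 fold change of the sum was -0.22 (SE 0.05, edgeR, BH-adjusted p = 0.0155). TUBB2B holds most of the counts in this sum, so its call is not a separate check. Reads dropped for matching both genes would be missing from the sum too, and the multi-mapping settings are not given.

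**Figure D2:**
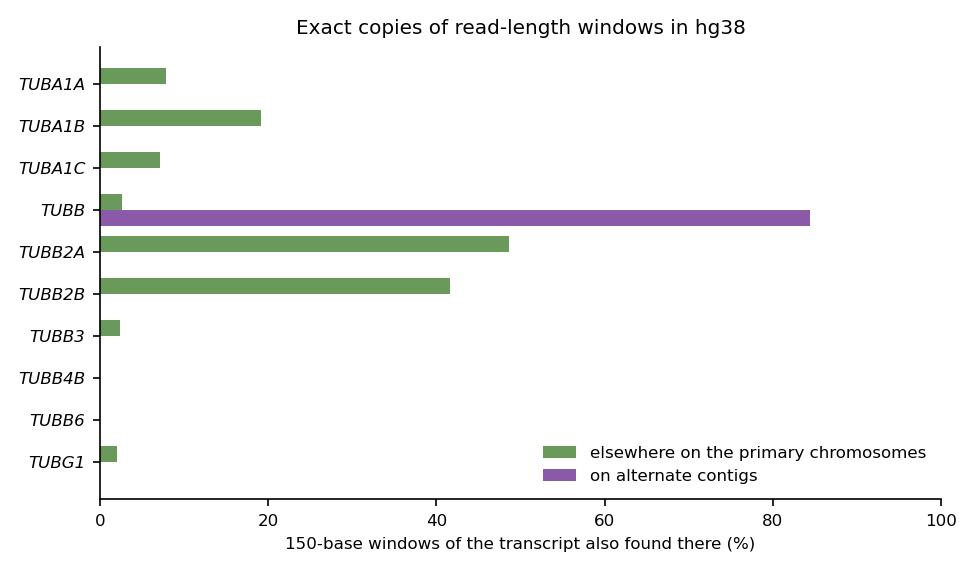
Percent of the 150-base windows of each canonical transcript (horizontal axis) found without a mismatch elsewhere on the primary chromosomes of hg38 (green) or on its alternate contigs (purple). Windows across exon junctions cannot match the locus of a spliced gene. Only 20.4% of the TUBG1 windows matched even its own locus, so its bar says little about spliced paralogs. TUBB2A and TUBB2B share 48.7% and 41.6% of their windows with other places on the primary chromosomes, and 84.4% of the TUBB windows lie on alternate contigs.

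TUBB4B, a β isotype found in most cells and in the axoneme of cilia, had 213 and 210 CPM in 2-D and 238 and 242 CPM in 3-D. The conditions were well apart, with a log2 fold change of 0.18 (SE 0.03, edgeR, BH-adjusted p = 0.00249). None of its windows occurred elsewhere in hg38. Among the isotypes described here, it was the closest match of 26 pseudogenes, which held 7.39% to 8.40% as many counts as TUBB4B. Tubulin genes outside that set were not candidates for the match, so these pseudogenes need not be copies of TUBB4B. The most counted of them, TUBBP5, was 87.9% identical to TUBB4B over the aligned bases. FAM166A covers 6.09% of the TUBB4B exon bases on the opposite strand. It had 1287 and 1126 counts in 2-D and 668 and 462 in 3-D, and these were not added to TUBB4B in any fit. TUBB6, a divergent β isotype of many non-neuronal cells, had 153 and 149 CPM in 2-D and 148.1 and 148.4 CPM in 3-D. The 3-D libraries were just under the 2-D libraries, with a log2 fold change of -0.02 (SE 0.03, edgeR, BH-adjusted p = 0.731).

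TUBB3, the β isotype used as a marker of neurons under the antibody name TUJ1, had low counts. It had 195 and 161 counts in 2-D and 99 and 89 in 3-D, or 5.65 and 5.22 CPM in 2-D and 4.81 and 4.96 CPM in 3-D. The 3-D libraries were lower, and the log2 fold change was -0.16 (SE 0.13, edgeR, BH-adjusted p = 0.564). Of the TUBB3 exon bases, 21.3% are also exons of ENSG00000198211, a readthrough gene on the same strand that was listed at 0 counts in all 4 libraries. The overlap spans 1584 bases, and the canonical TUBB3 transcript has 1706. How much of the overlap lies in that transcript, and whether reads on both genes were counted, was not tested. Of the 9 tested genes on the neuronal list, 8 had values above 0, with a median log2 fold change of 0.24, and 0 were called. GAP43, a growth-cone protein, had 24.5 and 24.6 CPM in 2-D and 32.1 and 25.6 CPM in 3-D (log2 fold change 0.24, SE 0.09, edgeR, BH-adjusted p = 0.141), and NES, an intermediate filament of progenitors, was at 575.7 to 601 CPM. NEUROD1 was at 0 counts in every library.

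TUBB was listed at 6 and 2 counts in 2-D and at 2 and 4 counts in 3-D. Exact Poisson 95% intervals, which cover counting error only, ran from 2.20 to 13.1, 0.242 to 7.22, 0.242 to 7.22 and 1.09 to 10.2 counts. It was therefore not tested, and the data give no level for TUBB, a widely expressed β isotype of dividing cells. The transcript is the only one of the 10 with exact copies on alternate contigs of hg38: 84.4% of its windows matched its own locus, and the same percentage matched on 7 alternate contigs. Of 10 protein-coding genes within 100 kb of TUBB, 8 had at most 10 counts in every library, a state shared by 26.1% of all protein-coding genes. FLOT1, a lipid raft protein, had 0, 0, 0 and 1 counts there, and ATAT1, the α-tubulin acetyltransferase, had 0 in all 4. Whether the authors' mapping used the alternate contigs was not tested.

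The processed pseudogene TUBBP1, 97.4% identical to the TUBB coding sequence, held far more counts than TUBB: 2070 and 1760 in 2-D and 1263 and 864 in 3-D. In CPM these were 59.996 and 57.009 in 2-D and 61.3 and 48.1 in 3-D, and the conditions overlapped. The log2 fold change was -0.09 (SE 0.08, edgeR, BH-adjusted p = 0.577). From which locus these reads came was not tested. Of 51 tubulin pseudogenes in the annotation, 25 had a count in any library, and after TUBBP1 the most counted were TUBBP5 with 272 to 404 counts, TUBA5P with 170 to 301, TUBB2BP1 with 55 to 63 and TUBB8P1 with 34 to 71. TUBB2BP1, 97.7% identical to TUBB2A over the aligned bases, was higher in 3-D, with a log2 fold change of 0.68 (SE 0.19, edgeR, BH-adjusted p = 0.0456), from 1.83 and 1.88 CPM in 2-D to 2.87 and 3.06 CPM in 3-D.

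In the β pool, the counts per kb of exon over all β genes of a library, TUBB2B and TUBB4B exchanged their order when counts were divided by the length of all merged exons. TUBB2B made up 32.995% and 34.278% of the pool in 2-D and 26.429% and 28.982% in 3-D, a difference of -5.93 percentage points between means of 33.6% ± 0.907 and 27.7% ± 1.81 (SD, n = 2). TUBB4B made up 29.9% and 31.2% in 2-D and 36.5% and 34.9% in 3-D, a difference of 5.12 points between means of 30.6% ± 0.928 and 35.7% ± 1.09 (SD, n = 2). Both differences exceeded the distance between libraries of a condition, and with 2 libraries against 2 the smallest p that an exact permutation test can give is 0.333. TUBB2A held 21.0% to 24.1% in 2-D and 22.5% in both 3-D libraries, TUBB6 held 11.1% to 11.7% over all libraries, and TUBB3 held 0.197% to 0.218%. These shares compare genes within a library and so do not depend on scaling between libraries, but they leave TUBB and TUBB3 at their listed counts. The summed level of the β genes ran from 1053.3 to 1113 CPM in 2-D and from 979.6 to 1052.4 CPM in 3-D, so that the conditions came close to overlapping. Both this sum and the shares hold TUBB at 2 to 6 counts, although the data give no level for it. The β total and the shares with TUBB fully counted are therefore not known.

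**Figure D3:**
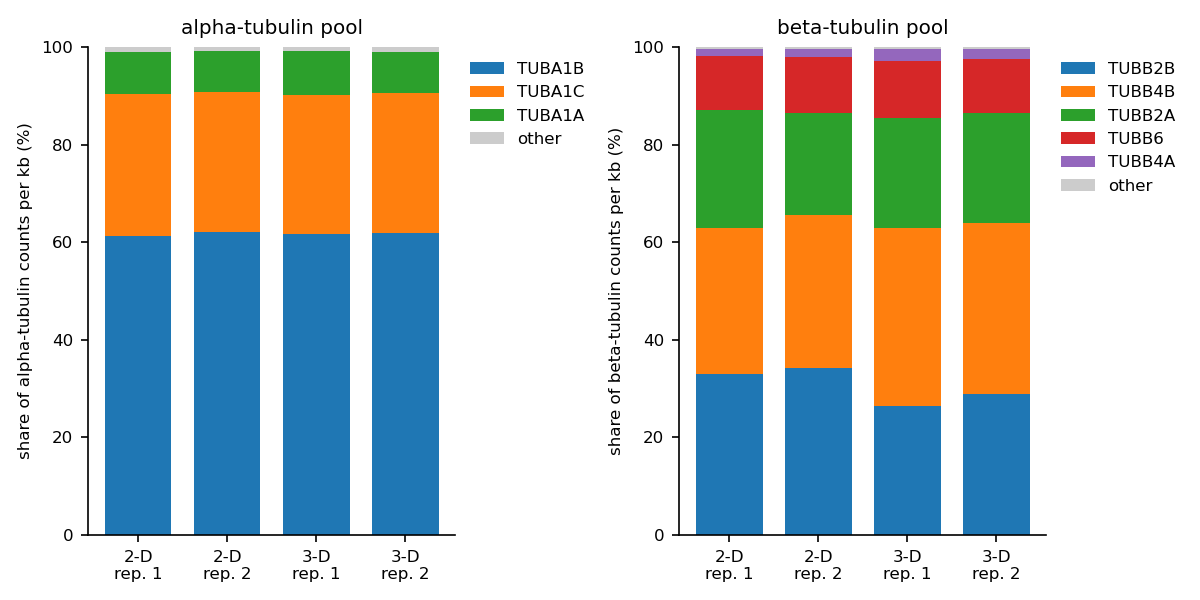
Share of the α pool (left) and β pool (right) held by each isotype in each library, in percent of counts per kb of exon (vertical axis). In the β pool the TUBB2B segment shrank from 32.995% and 34.278% in 2-D to 26.429% and 28.982% in 3-D and the TUBB4B segment grew, while the α segments stayed level.

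Per kb of merged exons, the order in 2-D was TUBA1B at 248 ± 1.19 CPM per kb, TUBA1C at 116, TUBB2B at 114, TUBB4B at 104, TUBB2A at 76.7, TUBB6 at 38.2, TUBA1A at 34.4, TUBG1 at 13.2 and TUBB3 at 0.732 (means, n = 2). In 3-D it was TUBA1B at 271 ± 13.4, TUBA1C at 125, TUBB4B at 118, TUBB2B at 91.6, TUBB2A at 74.2, TUBA1A at 38.5, TUBB6 at 37.6, TUBG1 at 16.2 and TUBB3 at 0.658. The libraries of TUBA1C and TUBB2B overlapped in 2-D, and no other neighbours in these orders did. The order depended on the length used. Divided by the length of the canonical transcript, TUBB2B stayed above TUBB4B in 3-D, at 198 against 153 CPM per kb, after 247 against 135 in 2-D. On that scale TUBB2B was also above TUBA1C in 2-D, at 183, and overlapped it in 3-D, where TUBA1C was at 197, and the TUBB2A libraries in 2-D, with a mean of 138, lay on either side of those of TUBB4B.

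TUBG1, the main γ-tubulin, was the isotype with the highest fold change. It had 56.8 and 57.3 CPM in 2-D and 69.3 and 70.2 CPM in 3-D, with libraries close within each condition. The log2 fold change was 0.29 (SE 0.04, edgeR, BH-adjusted p = 6.35e-04). TUBG2, its paralog, had 11.9 and 11.7 CPM in 2-D and 12.9 and 15.3 CPM in 3-D, and its log2 fold change of 0.24 (SE 0.10) did not pass the test (edgeR, BH-adjusted p = 0.163). The other genes of the γ-tubulin ring complex, its adaptors and the augmin complex, which recruits it along existing microtubules, were not called. Of 20 such genes, all tested, 0 were called by edgeR (6 at an unadjusted p below 0.05) and 0 by DESeq2, with 0 to 2 called higher and 0 to 3 lower over the alternatives, and their median log2 fold change was -0.01. HAUS6, an augmin subunit, had values of 151 and 156.3 CPM in 2-D and 153.5 and 156.1 CPM in 3-D, and AKAP9, a scaffold for the ring complex at the centrosome and Golgi, had 114 and 119.8 CPM in 2-D and 129 and 123 CPM in 3-D. TUBGCP5, a ring subunit, had the widest positive value of the list, 0.47 (SE 0.17, edgeR, BH-adjusted p = 0.134), and was picked out after its value was seen.

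**Figure D4:**
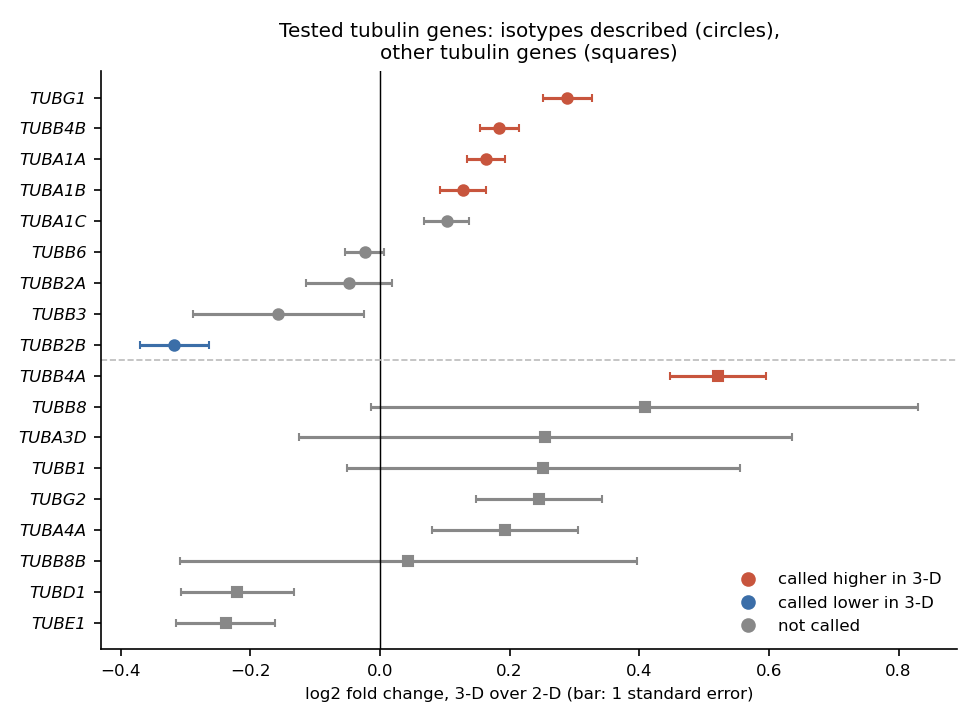
Log2 fold change of 3-D over 2-D (horizontal axis, bars of 1 standard error) for the 9 tested isotypes (circles) and the 9 tested genes among the other tubulins (squares), colored by call. TUBG1, TUBB4B, TUBA1A and TUBA1B are to the right of 0, TUBB2B is to the left, and TUBB4A at 0.52 is the called gene of the other tubulins.

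Of the other 14 protein-coding tubulin genes, 9 were tested and 1 was called. That gene was TUBB4A, the β isotype of oligodendrocytes and neurons, with 16.8 and 16.4 CPM in 2-D and 24.7 and 22.9 CPM in 3-D. Its log2 fold change of 0.52 (SE 0.07, edgeR, BH-adjusted p = 0.00110) was larger than that of any of the 10 isotypes, though it held only 1.49% to 2.39% of the β pool. TUBE1 and TUBD1, the ε- and δ-tubulins of the centriole, had values of 19.7 and 21.0 CPM and 17.4 and 18.1 CPM in 2-D, against 17.5 and 16.9 CPM and 14.2 and 16.4 CPM in 3-D. Neither was called, with log2 fold changes of -0.24 (SE 0.08) and -0.22 (SE 0.09). TUBA3C and TUBAL3 were at 0 counts in all libraries.

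Proteins that fold tubulin or act on it formed 4 further lists. Prefoldin, which hands nascent tubulin to the chaperonin, and the tubulin cofactors, which assemble the dimer, gave 1 higher and 1 lower gene of 14 tested, with a median log2 fold change of 0.07. VBP1, a prefoldin subunit, had 137 and 138 CPM in 2-D and 118 and 112 CPM in 3-D, a log2 fold change of -0.25 (SE 0.03, edgeR, BH-adjusted p = 6.93e-04). TBCA, a cofactor that holds β-tubulin, had 171 and 175 CPM in 2-D and 201 and 187 CPM in 3-D, a log2 fold change of 0.17 (SE 0.04, edgeR, BH-adjusted p = 0.0142). TBCA was not called without 2-D replicate 1, by edgeR's likelihood ratio test or with library size alone. TBCD and PFDN5 had -0.06 (SE 0.04) and 0.05 (SE 0.04), and PFDN6 was at 0 counts in all libraries, with 41.0% of its windows on 4 alternate contigs.

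The list of enzymes that acetylate, detyrosinate, glutamylate or trim tubulin held 25 genes, and 20 were tested. ATAT1, the acetyltransferase, had 0 counts in all libraries, so no acetylating enzyme was tested. Of its windows, 34.9% lie on 6 alternate contigs. Among the tested genes 1 passed the threshold, and the median of their log2 fold changes was 0.00. TTLL12, a member of the tyrosine ligase-like family, had 81.0 and 75.7 CPM in 2-D and 85.4 and 89.4 CPM in 3-D (log2 fold change 0.16, SE 0.04, edgeR, BH-adjusted p = 0.0359). It was not called without 2-D replicate 2 or 3-D replicate 2, nor by DESeq2, edgeR's likelihood ratio test or limma, with length and GC offsets or with library size alone. VASH2, which removes the C-terminal tyrosine of α-tubulin, and TTLL4, a glutamylase, were not called, with log2 fold changes of 0.03 (SE 0.03) and 0.01 (SE 0.03).

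Of 7 genes for decay of tubulin mRNA, which include the recognition factor TTC5, its partner SCAPER and subunits of the CCR4-NOT deadenylase, all were tested and 1 was called. CNOT3, a deadenylase subunit, had 8.67 and 9.56 CPM in 2-D and 16.3 and 13.4 CPM in 3-D, a log2 fold change of 0.71 (SE 0.11, edgeR, BH-adjusted p = 0.00173). Of its windows, 24.7% also lie on 9 alternate contigs, and only 27.3% lie within single exons of its own locus. DESeq2 gave CNOT3 no adjusted p. CNOT1, the scaffold of the complex, had 630.2 and 629 CPM in 2-D and 638 and 657.6 CPM in 3-D, and its log2 fold change of 0.04 (SE 0.03) was not called.

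Of 42 tested microtubule-associated proteins, 9 were called higher and 0 lower, with a median log2 fold change of 0.06, but with library size alone as scaling 2 were called higher and 4 lower. DESeq2 called 5 higher and 0 lower, edgeR's likelihood ratio test 4 higher and 1 lower, and the fit with length and GC offsets 6 higher and 0 lower. MAP4, the main lattice-binding protein outside neurons, went from 405 and 407 CPM in 2-D to 457 and 452 CPM in 3-D (log2 fold change 0.16, SE 0.03, edgeR, BH-adjusted p = 0.00456). MAP1B, a growth-cone protein, went from 1336 and 1332 CPM to 1487 and 1435 CPM (0.13, SE 0.03, edgeR, BH-adjusted p = 0.0200). TPX2, a spindle assembly factor, went from 206 and 207 CPM to 232 and 226 CPM (0.15, SE 0.03). MAP7D3 and TACC2 were higher by 0.23 each (SE 0.04), and MAP1S by 0.25 (SE 0.06). CKAP5, a microtubule polymerase, and DCLK1 were not called, at 0.06 (SE 0.03) and -0.04 (SE 0.03). PRC1, a spindle midzone protein picked out after its value was seen, was at -0.78 (SE 0.22, edgeR, BH-adjusted p = 0.0520). Leaving out 2-D replicate 1 left 3 called higher, and leaving out 2-D replicate 2 left 4. Scaling by library size alone gave 0 higher and 2 lower for the folding list, 0 and 3 for the ring complex list, 0 and 1 for the modifying enzymes and 1 and 0 for the mRNA decay list.

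**Figure D5:**
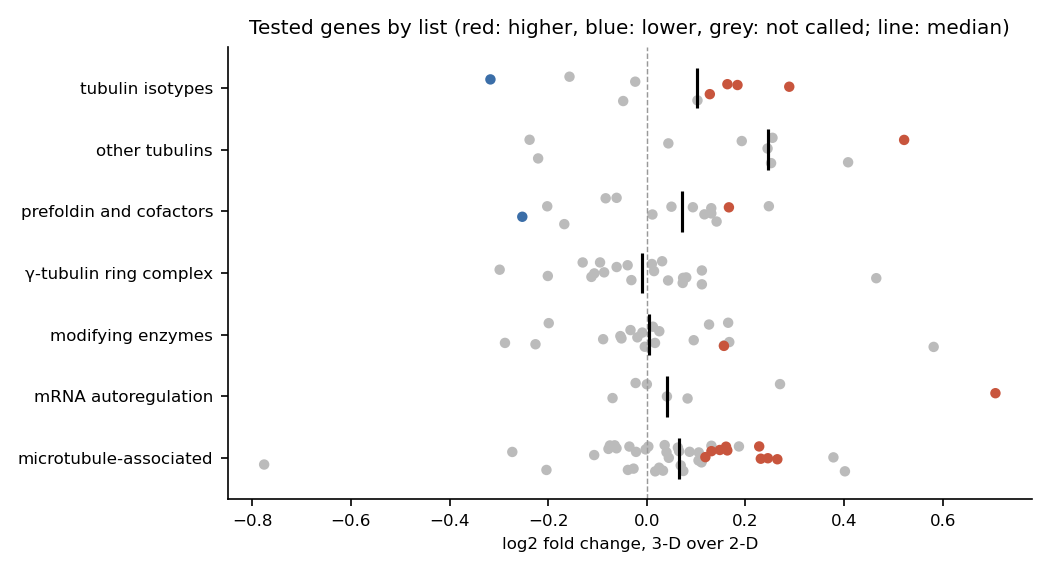
Log2 fold change of 3-D over 2-D (horizontal axis) for each tested gene of 7 lists, with a black line at the median of the list, red for genes called higher, blue for genes called lower and grey for those not called. The isotypes hold red points at 0.13 to 0.29 and 1 blue point at -0.32, and the γ-tubulin ring complex list holds no colored point.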

How the data were processed

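The authors prepared RNA libraries with ribosomal depletion, sequenced paired ends, and, per the labels and methods, used Trim Galore 0.6.3, HISAT2 2.1.0 on hg38, featureCounts 1.6.4 on genes of an earlier GENCODE release than the one used here and DESeq2 2.11.40.6. Strand and multi-mapping settings are not given in the sources used here. The deposited counts are whole reads per gene and library, without normalization or pooling. The deposited normalized signal is each count divided by 1 size factor per library (1.38, 1.23, 0.825 and 0.719), by the authors. Its table also holds the authors' fold changes, errors, Wald statistics and p-values, which were not used.

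Symbols, lengths and positions were from GENCODE release 44, which matched 60295 of 60564 identifiers (269 others held 0.122% of counts). Counts were analysed with edgeR 4.0.16 (R 4.3.3): filterByExpr, TMM, quasi-likelihood test on condition alone, Benjamini-Hochberg adjustment, called below 0.05. A standard error is the log2 change divided by the root of its F statistic. DESeq2 1.42.0 and limma 3.58.1 (log2 of the deposited normalized signal plus 1) were alternatives, beside edgeR's likelihood ratio test, other scalings and filters, offsets for length and GC content, a replicate block, pseudogene counts added to isotypes and each library left out. The biological coefficient of variation was 5.10%, and replicates of a condition differed beyond sampling noise (chi-square over degrees of freedom 2.45 in 2-D and 4.39 in 3-D). Shares used counts per kb of merged exons, whose lengths may differ from those the authors counted over. Windows of 150 bases were searched in hg38 with its alternate contigs, where those across exon junctions can match only copies without introns. Pseudogenes were assigned with blastn 2.17.0 to the closest of the isotypes described here, with no other tubulin genes as candidates. Some sequences are not reported here. The edgeR step was tested on simulated counts. Python 3.11.15 and matplotlib 3.10.9 made tables and figures.

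All 10 isotypes are named. From every other list the called genes (the 6 with the smallest p where there were more) and the 2 uncalled genes with the highest mean CPM are named where a result touches the tubulins, with the 5 pseudogenes of highest mean counts. The members and lists were chosen with earlier results of these data known.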

Additional observations from a re-analysis of the deposited data

How the results depend on the processing

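Each isotype was refitted under up to 18 alternatives. TUBB2B, TUBB4B and TUBG1 kept their call and direction in all of those that gave a value, with log2 fold changes from -0.43 to -0.21, 0.12 to 0.20 and 0.22 to 0.30. TUBB3 and TUBB6 were called in none. TUBA1B lost its call in 5 and TUBA1A in 2, among them scaling by library size alone, and TUBA1C gained one in 3. TUBB2A reversed to 0.10 without 2-D replicate 1 and was called at -0.18 without 2-D replicate 2. The 5 isotypes called became 3 with library size alone, where the median log2 fold change was 0.039, and 4 to 6 when a library was left out, with medians from 0.056 to 0.15. The 1782 genes called became 794 with DESeq2, 1139 with edgeR's likelihood ratio test and 974 to 2643 with a library left out. In that last fit, a condition with 1 library is assumed to vary like the other condition. The difference in the TUBB2B share of the β pool was -7.21 to -4.65 percentage points with a library left out, and -6.37 or -6.18 without division by length or with canonical transcript length. The TUBB6 share difference, 0.131 points, moved to 0.695 and 0.533 with those lengths, and the TUBB3 difference, -0.0164, to -0.0206 and -0.0258. The differences between replicates correlated at -0.0079 between conditions, so no shared effect of the replicate number was seen. The labels do not give whether libraries of the same number were paired. A replicate block gave 5 isotypes and 2167 genes called. Summing TUBB2A with TUBB2B, adding antisense counts and canonical transcript length were chosen after seeing the data. Antisense counts were added for TUBA1B and TUBA1C only. The causes were not tested.

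With no filter on low counts, TUBB had a log2 fold change of 0.34 (SE 0.94) from 2 to 6 counts a library, which gives no direction at this depth. TUBB2A and TUBB2B share windows, and the α genes share a smaller part of theirs, so the split of reads within each set is uncertain. Having 2 libraries a condition limits all shares.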
